A study of Mus musculus with 6 samples.

Results

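BV2 cells, an immortalized mouse microglial line, listed 10 genes of extracellular nucleotide and adenosine signalling: the receptors P2ry2, P2ry6, P2ry12, P2ry13, P2ry14, P2rx4, Adora2a and Adora2b and the ectonucleotidases Entpd1 and Nt5e. They were chosen by name and found by gene symbol, 10 of 22672 listed genes. The series holds 6 RNA sequencing libraries, 3 labelled shNumb-ctr, cells with a hairpin named for Numb, and 3 labelled shscr-ctr, by the usual reading a scrambled hairpin. The line is the same in both groups, no label names a treatment, and ctr is not spelled out. The labels do not say whether a group was a clone or a pool, or whether its 3 samples were separate cultures. The p-values therefore only set group differences against the scatter among these samples, and that scatter may be technical.

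Cells release ATP, ADP, UTP and UDP when active or damaged. P2X receptors are channels opened by ATP and P2Y receptors are coupled to G proteins. CD39, encoded by Entpd1, removes phosphates from ATP and ADP, and CD73, encoded by Nt5e, turns the resulting AMP into adenosine, which acts on adenosine receptors. In microglia P2Y12 steers processes towards released nucleotides, P2Y6 responds to UDP and is known for its part in phagocytosis, and P2X4 is known for its part in neuropathic pain.

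The deposited values, taken as FPKM (fragments per kilobase of gene, scaled to library depth), summed to between 451077 and 455561 per library, with 13513 to 13823 genes above 0. Numb itself was no lower under its own hairpin label: the libraries labelled shNumb-ctr had 38.0, 37.2 and 40.0 FPKM, against 35.8, 36.7 and 36.1 FPKM in shscr-ctr (log2 fold change 0.08, SE 0.036, limma adjusted p = 0.137). Each direction below is therefore between the labels, shNumb-ctr over shscr-ctr. The microglial and macrophage genes Itgam, Ptprc and Csf1r stood between 49.3 and 95.8 FPKM in shNumb-ctr and between 48.6 and 104 FPKM in shscr-ctr, while Cx3cr1, Aif1 and Tmem119 were at or below 5.09 and Sall1 was listed at 0. At an adjusted p under 0.05 Itgam and Cx3cr1 were higher in shNumb-ctr (log2 fold changes 0.21 and 0.26, limma adjusted p = 0.0063 and 0.0161). Csf1r was lower (log2 fold change -0.14, limma adjusted p = 0.0375). Ptprc, Aif1 and Tmem119 did not pass (limma adjusted p = 0.718, 0.135 and 0.201). Of the transcript windows of Itgam (50 bases each), 72.2% also occur in another gene, so its level is uncertain. The 13 listed of 14 microglial markers summed to between 1017 and 1109 FPKM in shNumb-ctr and between 986 and 1004 FPKM in shscr-ctr. Cd68 was the highest of them, at 564 to 635 FPKM in shNumb-ctr and 536 to 550 FPKM in shscr-ctr (limma adjusted p = 0.0381). Siglech, Gpr34 and Olfml3 of the same list were at most 0.0538, 0.719 and 0.0452 FPKM, so the sum does not speak for each marker. Also on the list, Spi1 was lower in shNumb-ctr and Trem2 higher (log2 fold changes -0.14 and 0.26, limma adjusted p = 0.0137 and 0.0072). Of 37 markers of 7 other cell types 35 were under 1 FPKM in every library. The exceptions were Mbp, at up to 1.66 FPKM, and Pf4, a platelet chemokine that macrophages can also express, at 116 to 123 FPKM in shNumb-ctr and 96.3 to 102 FPKM in shscr-ctr. The library shNumb-ctr replicate 2 stood apart in stimulation genes, with Il1b at 4.14 FPKM there and at most 0.810 FPKM in the other 5 libraries.

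The 10 genes fell into 5 expressed at several FPKM and 5 near or at 0. P2rx4 had the highest mean over the 6 libraries (26.1 FPKM, 24.4 to 29.1), followed by Entpd1 (22.0 FPKM, 20.1 to 25.4), and their ranges overlapped. P2ry6 (7.70 FPKM, 6.63 to 9.16) and P2ry2 (6.65 FPKM, 5.81 to 7.50) came next, below Entpd1 without overlap, and also overlapped each other. Adora2b followed at 4.17 FPKM (3.99 to 4.52), clear of P2ry2. P2ry12 (0.838 FPKM) and P2ry13 (0.811 FPKM) could not be told apart in level, and each reached 1 FPKM in 2 of 6 libraries. Adora2a was at most 0.250 FPKM, Nt5e was listed at 0 in 3 libraries and at most 0.0419 FPKM in the others, and P2ry14 was listed at 0 in all 6. The ADP receptor of resting microglia, the other Gi-coupled P2Y receptors, Adora2a and the enzyme making adenosine from AMP thus lay at the bottom. The ATP channel and CD39 lay at the top of the order.

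**Figure D1:**
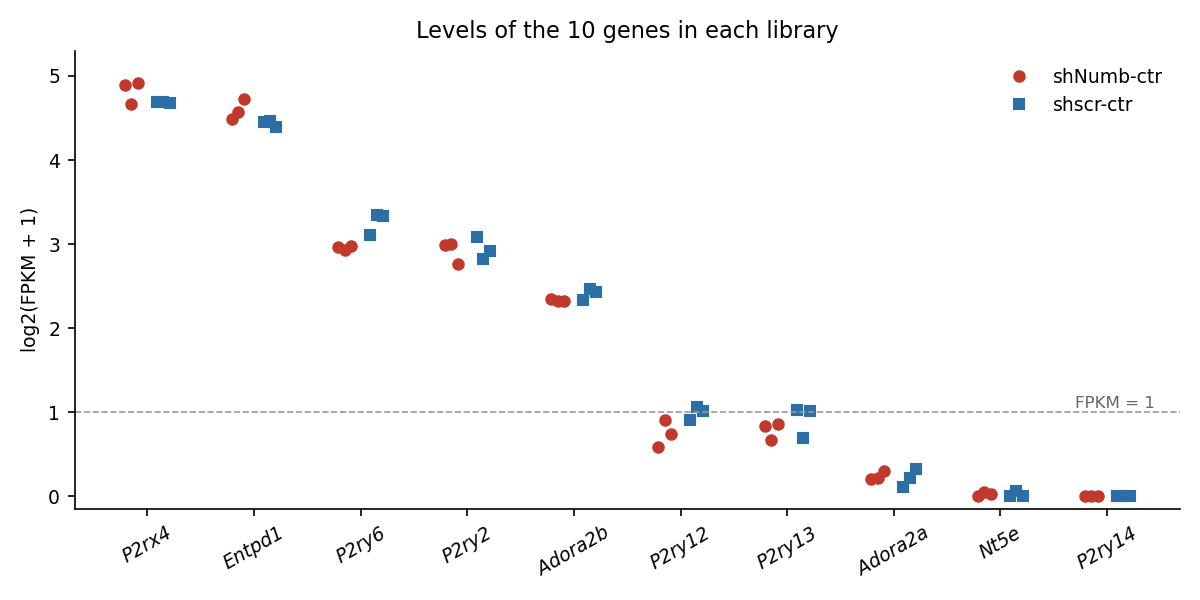
Levels of the 10 genes as log2(FPKM + 1), ordered by mean, with 1 point per library (red circles shNumb-ctr, blue squares shscr-ctr); the dashed line marks 1 FPKM. P2rx4 and Entpd1 stand above 20 FPKM in every library, and P2ry12 and P2ry13 lie about the dashed line.

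Genes with at least 1 FPKM in at least 3 libraries were tested, on log2(FPKM + 1), which understates the change of low genes. That left 10594 genes and, of the 10 genes, P2rx4, Entpd1, P2ry6, P2ry2 and Adora2b. P2ry6 was lower in shNumb-ctr and passed the threshold, an adjusted p under 0.05. None of the other 4 did. The count was 1 of 5 lower, where 10.7% of all tested genes were called lower, and 0 of 5 higher, where 8.11% of all tested genes were called higher (limma). At an unadjusted p under 0.05, 1 of the 5 was higher, Entpd1, and 1 lower, P2ry6, where 14.6% of all tested genes were higher and 20.6% lower at that p (limma). At this number of genes neither count stands apart from the background. The median log2 fold change of the 5 genes was -0.02, as was that of all tested genes. After median-of-ratios scaling 56.6% of all called genes were higher, against 43.2% as deposited, and the call for P2ry6 was the same under both.

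P2ry6, the receptor for UDP, which couples to Gq and calcium release, had 6.79, 6.63 and 6.89 FPKM in the replicates 1, 2 and 3 of shNumb-ctr, against 7.64, 9.16 and 9.07 FPKM in shscr-ctr replicates 1, 2 and 3. All 3 shNumb-ctr libraries lay close together and below all 3 shscr-ctr libraries, of which replicate 1 was nearest to them. The means were 6.77 ± 0.133 FPKM in shNumb-ctr and 8.62 ± 0.851 FPKM in shscr-ctr (SD, n = 3 each), a fold of 0.785. The log2 fold change was -0.31 (SE 0.069, 95% interval -0.46 to -0.15, limma adjusted p = 0.0203), and 1.83% of tested genes had a log2 fold change as low or lower. In RNA of whole cultures, fewer cells with a transcript and less of it per cell cannot be told apart. The call was lost in 5 of the 6 fits that left out a library, with limma adjusted p of 0.0565, 0.0538 and 0.0522 without shNumb-ctr replicates 1, 2 and 3, and 0.0566 and 0.0656 without shscr-ctr replicates 2 and 3. The fold change remained negative in all of them, between -0.38 and -0.26.

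P2ry2, the receptor for ATP and UTP, is the neighbour of P2ry6 on chromosome 7 in GENCODE release M21, on the same strand. P2ry2 had 6.97, 6.97 and 5.81 FPKM in shNumb-ctr, against 7.50, 6.05 and 6.58 FPKM in shscr-ctr. The groups overlapped throughout, with a log2 fold change of -0.02 (SE 0.088, 95% interval -0.23 to 0.18, limma adjusted p = 0.874), whose sign changed to 0.05 without shNumb-ctr replicate 3 and also without shscr-ctr replicate 1. Within each library the level of P2ry6 over that of P2ry2 was 0.974, 0.950 and 1.19 in shNumb-ctr, against 1.02, 1.51 and 1.38 in shscr-ctr. These ratios overlapped, and the difference in response between the neighbours was not established (exact two-sided permutation p = 0.2, n = 3 each, smallest p possible 0.1; this test was chosen after the values were seen).

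**Figure D2:**
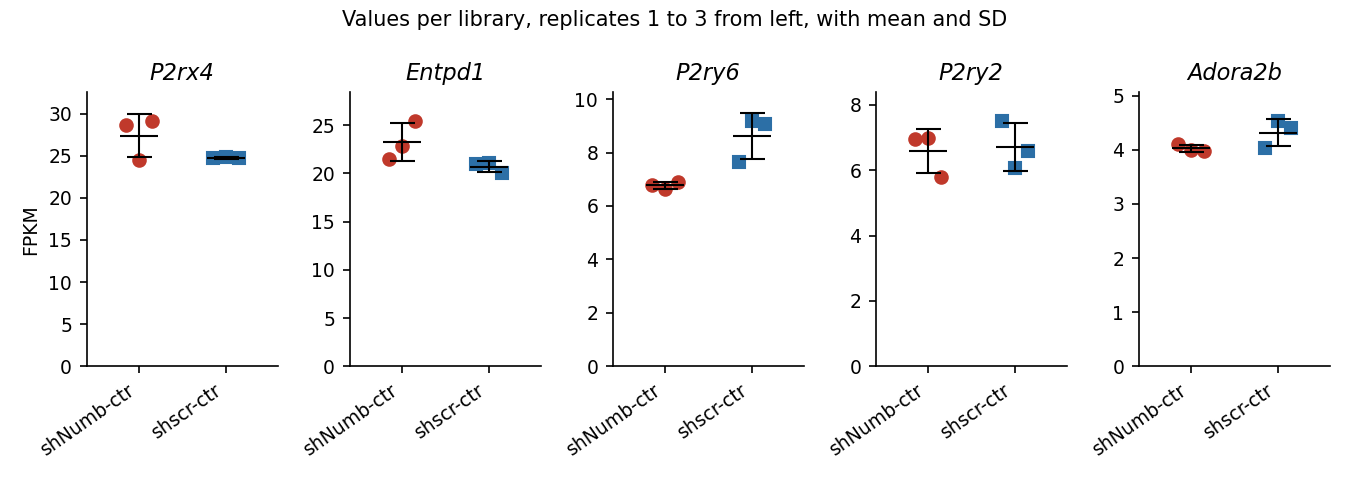
FPKM of the 5 tested genes in each library, on axes that start at 0, with shNumb-ctr (red circles) left of shscr-ctr (blue squares) and the mean and SD of 3 libraries in black. The groups separate for P2ry6 (lower in shNumb-ctr) and Entpd1 (higher in shNumb-ctr) and overlap for P2rx4, P2ry2 and Adora2b.

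The genes whose profile over the 6 libraries was nearest to that of P2ry6 were Anxa9, an annexin, C4b, a complement component, and Zfp207, a zinc finger protein. Nearness was the root-mean-square distance between log2(FPKM + 1) profiles centred on their own means, which was 0.0534, 0.0542 and 0.0601 for these genes, among 10204 compared. Predicted genes, genes with clone-based names, pseudogenes and assembled transcripts were left out of this comparison. Anxa9 was at 5.95, 6.17 and 6.21 FPKM in shNumb-ctr, against 7.17, 7.62 and 7.94 FPKM in shscr-ctr. Of the transcript windows of C4b, 35.5% also occur in another gene, so its level is uncertain.

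P2rx4, the ATP-gated cation channel that microglia hold largely in endosomes and lysosomes, was at 28.6, 24.4 and 29.1 FPKM in shNumb-ctr, against 24.7, 24.9 and 24.7 FPKM in shscr-ctr. The shNumb-ctr replicates 1 and 3 lay above all shscr-ctr libraries and replicate 2 below them, so the groups overlapped. The means were 27.4 ± 2.55 FPKM in shNumb-ctr and 24.8 ± 0.107 FPKM in shscr-ctr (SD, n = 3 each), and the log2 fold change of 0.14 did not pass (SE 0.062, 95% interval -0.01 to 0.28, limma adjusted p = 0.160). Without shNumb-ctr replicate 2, the library with high Il1b, the log2 fold change was 0.21 and passed (limma adjusted p = 0.0130). Whether the stimulation genes of that library bear on its P2rx4 value was not tested.

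P2rx4 lies next to P2rx7 on chromosome 5, on the same strand. P2rx7, the ATP-gated channel of the inflammasome pathway, was at 11.7, 11.9 and 12.04 FPKM in shNumb-ctr, against 12.9, 13.2 and 13.4 FPKM in shscr-ctr, and passed as lower (log2 fold change -0.14, SE 0.039, limma adjusted p = 0.0385). The P2rx7 call was lost whichever library was omitted, where limma adjusted p came to 0.111, 0.0786 and 0.0697 without shNumb-ctr replicates 1, 2 and 3, and 0.0770, 0.0893 and 0.116 without shscr-ctr replicates 1, 2 and 3. It was also lost with all 6 libraries after median-of-ratios scaling, after quantile normalization and with a replicate block (limma adjusted p = 0.0710, 0.0746 and 0.0908), so it was lost in 9 of 15 alternatives. The level of P2rx4 over that of P2rx7 was 2.45, 2.06 and 2.42 in shNumb-ctr, against 1.91, 1.88 and 1.84 in shscr-ctr. Every shNumb-ctr ratio was above every shscr-ctr ratio, by 1.23-fold on average (exact two-sided permutation p = 0.1, the smallest possible with n = 3 each, chosen after the values were seen). The promoters of this pair are shown because the 2 neighbours gave opposite signs. They run from 250 bases before to 50 bases after the start, from RefSeq on GRCm38.p6, plus strand, and for P2rx7 the start farther from P2rx4 was taken.
P2rx4, chr5:122707294-122707593: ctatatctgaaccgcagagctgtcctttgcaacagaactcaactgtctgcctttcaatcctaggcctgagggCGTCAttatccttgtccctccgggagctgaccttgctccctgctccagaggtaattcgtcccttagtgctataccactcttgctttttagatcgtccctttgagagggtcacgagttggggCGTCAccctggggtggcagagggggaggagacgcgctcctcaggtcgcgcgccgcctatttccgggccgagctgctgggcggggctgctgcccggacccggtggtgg
P2rx7, chr5:122643677-122643976: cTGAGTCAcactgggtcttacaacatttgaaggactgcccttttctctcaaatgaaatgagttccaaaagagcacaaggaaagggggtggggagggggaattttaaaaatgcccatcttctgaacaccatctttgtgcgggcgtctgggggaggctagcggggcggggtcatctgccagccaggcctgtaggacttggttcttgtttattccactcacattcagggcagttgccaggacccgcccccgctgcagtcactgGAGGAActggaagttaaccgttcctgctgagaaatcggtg

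Capitals mark matches on either strand to GAGGAA (a core of PU.1 sites), TGANTCA (AP-1) and TGACG (part of CREB sites), and no matches overlapped. The P2rx4 window held 2 matches to TGACG, both on the minus strand, and the P2rx7 window held 1 to GAGGAA and 1 to TGANTCA. The window of the other P2rx7 start, chr5:122650133-122650432, held 1 match to GAGGAA and 0 to TGANTCA, so the TGANTCA match depends on which start is taken. None of the 3 windows held TATAAA. Of 32851 RefSeq promoter windows of this length, 28.3% held GAGGAA, 7.81% TGANTCA, 20.8% TGACG and 13.6% TATAAA. The GC content was 60.3% for P2rx4 and 53.3% for P2rx7.

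Entpd1 (CD39), on chromosome 19, was at 21.5, 22.8 and 25.4 FPKM in shNumb-ctr, against 20.9, 21.1 and 20.1 FPKM in shscr-ctr. All 3 shNumb-ctr libraries were above all 3 shscr-ctr libraries, with means of 23.2 ± 1.98 FPKM in shNumb-ctr and 20.7 ± 0.562 FPKM in shscr-ctr (SD, n = 3 each). The log2 fold change was 0.16 (SE 0.059, 95% interval 0.02 to 0.29) and did not pass after adjustment (limma adjusted p = 0.0978). Groups did not overlap for 2 of the 5 tested genes, Entpd1 (higher) and P2ry6 (lower), where 39.9% of all tested genes did not overlap, 16.3% with shNumb-ctr higher and 23.6% with shNumb-ctr lower. Nt5e (CD73), on chromosome 9, was at 0, 0.0365 and 0.0165 FPKM in shNumb-ctr and at 0, 0.0419 and 0 FPKM in shscr-ctr, too low for a fold. The 2 enzymes of the path from ATP to adenosine thus differed in level, with Entpd1 above 20 FPKM and Nt5e under 0.05 FPKM in every library.

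**Figure D3:**
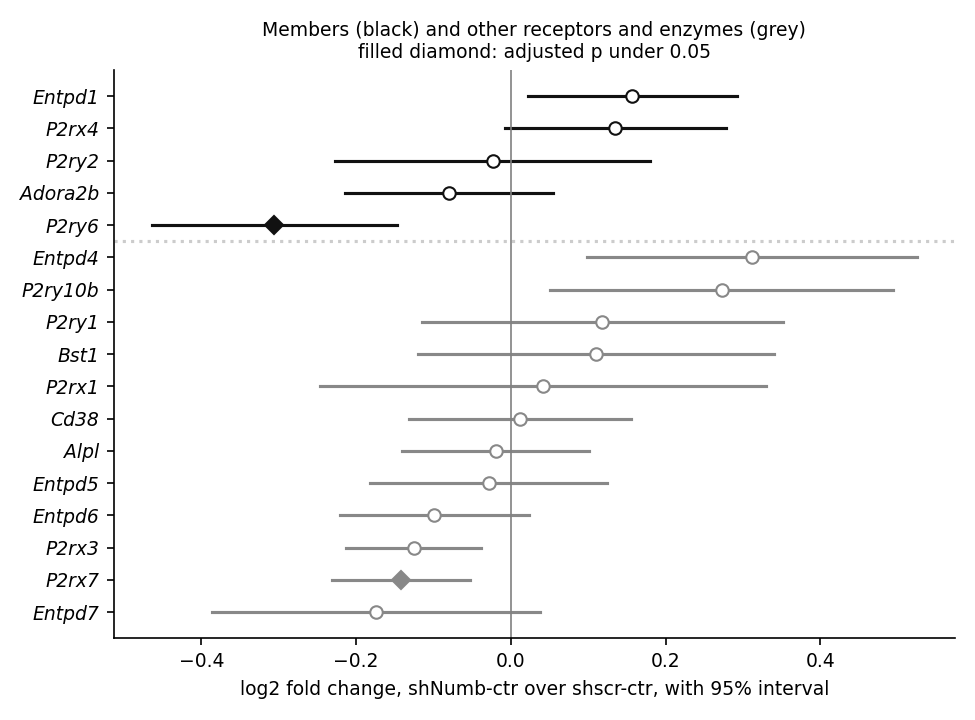
Log2 fold change of shNumb-ctr over shscr-ctr with its 95% interval (limma) for the 5 tested genes (black) and for the tested genes among other nucleotide receptors and enzymes (grey); filled diamonds passed an adjusted p under 0.05. P2ry6 (-0.31) and P2rx7 (-0.14) are the filled points.

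Adora2b, the adenosine receptor of lower affinity that couples to Gs and cAMP, was at 4.10, 4.00 and 3.99 FPKM in shNumb-ctr, against 4.03, 4.52 and 4.39 FPKM in shscr-ctr. The groups overlapped through shscr-ctr replicate 1, and the log2 fold change of -0.08 did not pass (SE 0.058, 95% interval -0.21 to 0.05, limma adjusted p = 0.368). Adora2a, the Gs-coupled adenosine receptor of higher affinity, was at 0.148, 0.162 and 0.235 FPKM in shNumb-ctr, against 0.0776, 0.165 and 0.250 FPKM in shscr-ctr. Adora2a overlapped between the groups (exact two-sided permutation p = 1.0, n = 3 each). Of the 2 receptors Adora2b was the higher in every library.

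P2ry12, P2ry13 and P2ry14 lie together on chromosome 3 and all are inside the span of Med12l, which is annotated on the opposite strand. P2ry12, the ADP receptor, was at 0.496, 0.877 and 0.674 FPKM in shNumb-ctr, against 0.880, 1.09 and 1.01 FPKM in shscr-ctr. All 3 shNumb-ctr libraries were below all 3 shscr-ctr libraries, although shNumb-ctr replicate 2 and shscr-ctr replicate 1 nearly met. The difference of mean log2(FPKM + 1) was -0.25 (exact two-sided permutation p = 0.1, the smallest possible with n = 3 each). With no filter on low values P2ry12 entered the fit across all genes and did not pass (limma adjusted p = 0.135).

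P2ry13, a second ADP receptor, was at 0.779, 0.593 and 0.819 FPKM in shNumb-ctr, against 1.04, 0.615 and 1.02 FPKM in shscr-ctr. Its groups overlapped through shscr-ctr replicate 2 (difference -0.12 on the log2 scale, exact two-sided permutation p = 0.3, n = 3 each). P2ry14, the receptor for UDP-glucose, was listed at 0 throughout, as was the nearby Gpr171. Med12l was at 0.434, 0.392 and 0.268 FPKM in shNumb-ctr, against 0.459, 0.389 and 0.293 FPKM in shscr-ctr. Whether counting used strand is not given in the sources used here, and whether exons of Med12l overlap those of P2ry12 or P2ry13 was not examined. Whether reads of Med12l enter the values of these receptors was therefore not tested. No transcript windows of the P2Y or adenosine receptors among the 10 genes, Entpd1 or Nt5e also occurred in other genes, and 1.82% of those of P2rx4 did.

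**Figure D4:**
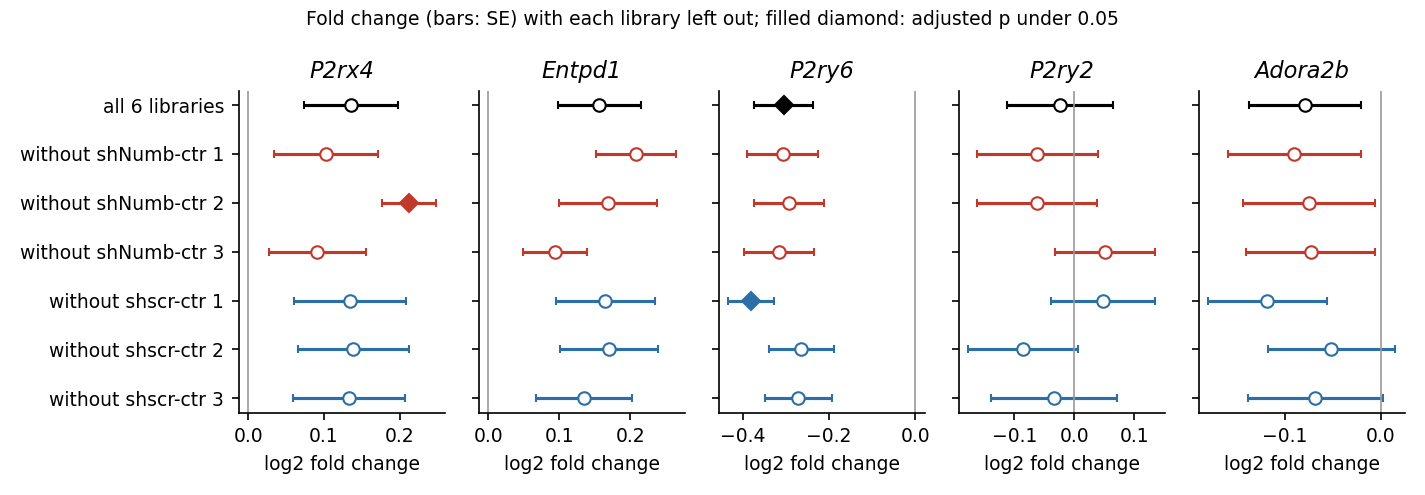
Log2 fold change with its SE for the 5 tested genes with all 6 libraries (black, top) and with each library left out (red, an shNumb-ctr library; blue, an shscr-ctr library); filled diamonds passed an adjusted p under 0.05. P2ry6 is filled with all libraries and without shscr-ctr replicate 1, and P2rx4 only without shNumb-ctr replicate 2.

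Among 12 other nucleotide and adenosine receptors 5 were tested, and P2rx7 was the 1 called. Of all tested genes 18.8% were called, 8.11% higher and 10.7% lower, which is the background for this list and those below. P2ry10b was at 4.11, 4.93 and 4.69 FPKM in shNumb-ctr and at 3.56, 3.12 and 4.20 FPKM in shscr-ctr, and did not pass (log2 fold change 0.27, limma adjusted p = 0.0842), but did so without shscr-ctr replicate 3 (0.0444). P2ry1, an ADP receptor, averaged 1.75 ± 0.235 FPKM in shNumb-ctr and 1.54 ± 0.267 FPKM in shscr-ctr, and P2rx1, an ATP-gated channel, 2.03 ± 0.509 FPKM in shNumb-ctr and 1.92 ± 0.243 FPKM in shscr-ctr (SD, n = 3 each). Neither passed (limma adjusted p = 0.442 and 0.836). P2rx3, a channel known from sensory neurons, was at 20.9, 20.3 and 20.9 FPKM in shNumb-ctr, against 22.9, 23.3 and 21.8 FPKM in shscr-ctr, and did not pass (log2 fold change -0.13, limma adjusted p = 0.0539), but did so after TPM rescaling (0.0458). P2rx3 overlaps Ssrp1 on the opposite strand, and Ssrp1 was at 122 ± 1.39 FPKM in shNumb-ctr and 137 ± 4.25 FPKM in shscr-ctr (SD, n = 3 each; log2 fold change -0.17, limma adjusted p = 0.0096). The overlap is between gene spans, and whether exons of the 2 genes overlap was not examined. Whether reads of Ssrp1 enter the P2rx3 value was not tested. P2ry4, P2ry10, P2rx2, P2rx5, P2rx6 and Adora3 were at most 0.224 FPKM, and Adora1 was listed at 0.

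Of 13 other enzymes that act on nucleotides outside the cell or in the secretory pathway, 7 were tested and 0 were called (limma). At an unadjusted p under 0.05, 1 was higher and 0 lower, where 14.6% of all tested genes were higher and 20.6% lower (limma). Entpd4 came nearest, at 10.2, 9.89 and 8.69 FPKM in shNumb-ctr, against 7.08, 8.76 and 6.84 FPKM in shscr-ctr (log2 fold change 0.31, limma adjusted p = 0.0509), but 100% of its transcript windows occur in Entpd4b and its level is uncertain. Entpd4 passed in 5 of 15 alternatives, with limma adjusted p of 0.0433 with the filter of 1 FPKM in all 6 libraries, 0.0440 after median-of-ratios scaling, 0.0495 after quantile normalization, 0.0460 with a replicate block and 0.0156 without shscr-ctr replicate 2. Alpl, an alkaline phosphatase that can remove phosphate from AMP, was at 18.9 ± 1.25 FPKM in shNumb-ctr and 19.1 ± 0.662 FPKM in shscr-ctr (SD, n = 3 each), far above Nt5e. Acp3 and the pyrophosphatase genes Enpp1 and Enpp3 were listed at 0.

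Adenosine handling held 4 called genes of 12 tested, 1 higher and 3 lower, where 8.11% of all tested genes were called higher and 10.7% lower. Whether the list differs from those shares was not tested. Ada, adenosine deaminase, rose to 3.06, 3.50 and 3.07 FPKM in shNumb-ctr, against 2.07, 2.46 and 2.24 FPKM in shscr-ctr (log2 fold change 0.37, SE 0.075, limma adjusted p = 0.0145). The Ada call was lost without shscr-ctr replicate 1 (limma adjusted p = 0.0508). Ahcy, which frees adenosine from S-adenosylhomocysteine, fell to 81.3 ± 1.97 FPKM in shNumb-ctr, against 98.7 ± 0.322 FPKM in shscr-ctr (SD, n = 3 each; log2 fold change -0.28, limma adjusted p = 0.0012), and 76.8% of the Ahcy windows occur in other genes. Nt5c2, a cytosolic nucleotidase, and Ampd2, AMP deaminase, also fell (log2 fold changes -0.19 and -0.18, limma adjusted p = 0.0107 and 0.0375). The Ahcy and Nt5c2 calls held in all 15 alternatives. Nt5c2 overlaps Ina on the opposite strand, which was also lower (log2 fold change -0.26, limma adjusted p = 0.0126). The Ampd2 call held without shscr-ctr replicate 2 and was lost without any other library, with limma adjusted p of 0.0600 to 0.109. With all 6 libraries it was lost without the filter, after median-of-ratios scaling, after quantile normalization, without a trend in the prior variance and with a replicate block (limma adjusted p of 0.0579 to 0.0865), which makes 10 of 15 alternatives. The median log2 fold change of the list was -0.09.

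Among 12 genes of nucleotide release 6 were tested, and Lrrc8b, a subunit of volume-regulated anion channels, was called higher (log2 fold change 0.29, limma adjusted p = 0.0308). Its call held without shscr-ctr replicate 2 and was lost without any other library, with limma adjusted p of 0.0632 to 0.0926. The Lrrc8b call was also lost after quantile normalization and with a replicate block (limma adjusted p = 0.0560 and 0.0646). Of 17 tested genes of the Gi, Gq and G12 classes and their effectors, 2 were called higher and 0 lower. They were Prkcd, a protein kinase C, and Pik3r5, a regulatory subunit of PI3 kinase gamma (log2 fold change 0.12 for both, limma adjusted p = 0.0232 and 0.0422). At an unadjusted p under 0.05, 3 were higher and 1 lower, where 14.6% of all tested genes were higher and 20.6% lower (limma). The lower gene was Pik3r6 (log2 fold change -0.14, limma adjusted p = 0.0624). The Prkcd call was lost without any library but shNumb-ctr replicate 2 (limma adjusted p of 0.0563 to 0.0690), and the Pik3r5 call without any of the 6 (0.0512 to 0.131). Without a trend in the prior variance and with a replicate block, Prkcd came to limma adjusted p = 0.0613 and 0.0695 and Pik3r5 to 0.0675 and 0.107, and Pik3r5 was also lost after TPM rescaling (0.0542).

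Of 15 tested genes of the cAMP pathway 1 was higher and 1 lower. Creb1, the cAMP-responsive transcription factor, fell to 6.52, 8.45 and 6.22 FPKM in shNumb-ctr, against 10.3, 9.83 and 11.0 FPKM in shscr-ctr (log2 fold change -0.51, SE 0.099, limma adjusted p = 0.0127). All 3 shNumb-ctr libraries were below all 3 shscr-ctr libraries, and the Creb1 call held in all 15 alternatives. Prkar2b, a regulatory subunit of protein kinase A, was higher (log2 fold change 0.19, limma adjusted p = 0.0438), a call lost without any library but shNumb-ctr replicate 3 (limma adjusted p of 0.0703 to 0.128). The Prkar2b call was also lost after TPM rescaling, without the filter and with a replicate block (limma adjusted p = 0.0524, 0.0760 and 0.0653). Of 11 tested arrestins, receptor kinases and RGS proteins 1 was called higher and 0 lower. The called gene was Rgs2, which limits Gq signalling (log2 fold change 0.19, limma adjusted p = 0.0375). At an unadjusted p under 0.05, 2 were higher and 3 lower, where 14.6% of all tested genes were higher and 20.6% lower (limma). The Rgs2 call was lost without shNumb-ctr replicate 1 or 3 or shscr-ctr replicate 1 or 3 (limma adjusted p of 0.0930 to 0.113), and also without the filter, without a trend in the prior variance and with a replicate block (0.0694, 0.0583 and 0.0850). Over the 7 lists together 11 of 73 tested genes were called, 6 higher and 5 lower, or 15.1%, where 18.8% of all tested genes were called. Their median log2 fold change was -0.02, and that of all tested genes -0.02.

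**Figure D5:**
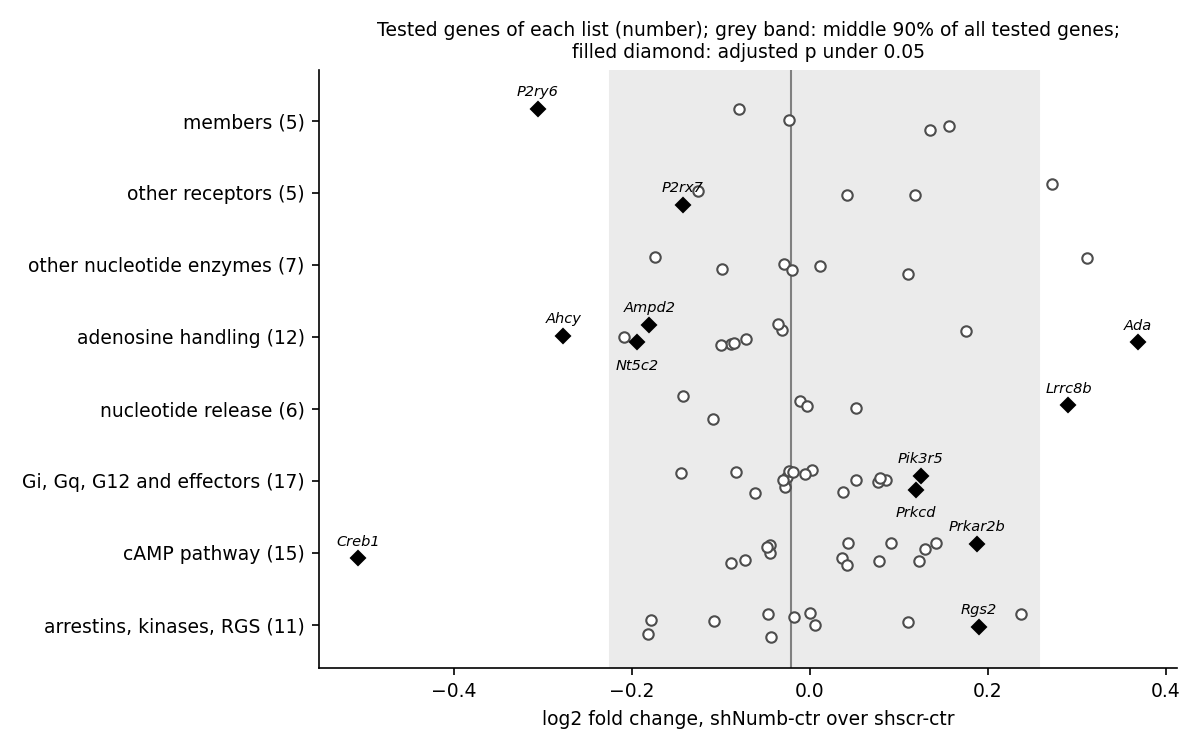
Log2 fold change of the tested genes of each list, with the number tested in parentheses; filled diamonds passed an adjusted p under 0.05, the grey band holds the middle 90% of all 10594 tested genes and the line is their median. P2ry6 (-0.31), Creb1 (-0.51), Ahcy (-0.28), Ada (0.37) and Lrrc8b (0.29) are called and lie outside the band.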

How the data were processed

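Per the labels' protocols, BV2 cells were collected in TRIzol and sequenced by a company. The authors deposited 1 value per gene and library; the headers name no unit, and the fractional values were read as FPKM, normalized by the authors for length and depth, although TPM of a larger gene table is possible. CASAVA and DESeq2 are named in the submitters' processing notes; the sources used here name no aligner, build or annotation. No whole-read steps were seen among low values, so the depth is unknown and no counting interval is given.

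Values were analysed as log2(FPKM + 1) in limma 3.58.1 (R 4.3.3), with a mean-dependent prior variance, no covariate, two-sided p-values and Benjamini-Hochberg adjustment over 10594 genes. Genes below the filter were compared by an exact permutation test over the 6 libraries. Shared sequence was measured with windows of 50 bases every 10 bases along the longest transcript in GENCODE M21 (GRCm38), used because the authors' build is not known. The fit was tested on simulated data. It recovered 61.8% of the genes changed by 0.3 on the log2 scale, and 5 of 168 calls were false. Recovery of smaller changes was not tested.

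The 10 genes, the pathway lists and the tests were chosen with earlier results of these data known. Named were all 10 genes, the other receptors, called list members, overlapping or neighbouring genes, and the 3 genes nearest in profile to a called gene. Il1b, Ssrp1, Ina, Entpd4, Alpl, Mbp, Pf4, Cd68, Siglech, Gpr34, Olfml3, Spi1, Trem2 and Pik3r6 were named after their values were seen. A marker gene is not reported here.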

Additional observations from a re-analysis of the deposited data

How the results depend on the processing

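The fit was repeated under 15 alternatives: pseudocounts of 0.1 and 5, no filter, a filter of 1 FPKM in all 6 libraries, 3 scalings, a prior variance without trend, a replicate block and each library left out. With the library left out, the number of all genes called ranged from 499 to 671 higher and from 465 to 869 lower, and of the 10 genes from 0 to 1 higher (P2rx4, without shNumb-ctr replicate 2) and from 0 to 1 lower (P2ry6). The replicate numbers share no stated source, and the deviations of same-numbered libraries correlated at 0.0067, 0.012 and 0.047, so they were not taken as pairs; with the replicate block 520 genes were higher and 559 lower, P2ry6 was still called (limma adjusted p = 0.0440) and the other tested genes of the 10 were still not. The sign of P2ry2 changed in fits without a library (range -0.0856 to 0.0522; reversed values 0.0522 and 0.0485), as did that of Adora2a (-0.0310 to 0.0758; reversed values -0.0087 and -0.0310) and Nt5e (-0.0079 to 0.0251; reversed values -0.0079 and -0.0045), and the cause was not tested. Other results on the 10 genes kept their direction and their side of the threshold, apart from the losses of the P2ry6 call given with its values and from P2rx4, which passed without shNumb-ctr replicate 2 (log2 fold change 0.21, limma adjusted p = 0.0130). P2ry6 passed in 10 of 15 alternatives, with limma adjusted p of 0.0103 to 0.0656, and Numb in 0 of 15 (0.0940 to 0.324). For the genes below the filter the exact permutation test of 3 against 3 libraries cannot give a p below 0.1, and the depth behind their values is unknown.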
